A study of Mus musculus with 6 samples.

Results

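The TNF ligand and receptor superfamilies were followed in 6 mouse osteosarcomas, 3 with an intact Skp2 gene and 3 without it. Members were chosen by symbol: every gene named Tnfsf or Tnfrsf with a number, together with Tnf, Lta, Ltb, Ltbr, Fas, Fasl, Cd40, Cd40lg, Cd27, Cd70, Eda, Edar, Eda2r and Ngfr. Tnfsf11, Tnfrsf11a and Tnfrsf11b, which code for RANKL, RANK and osteoprotegerin, were left out. This gave 43 of the 56196 genes in the table: 17 ligands, 25 receptors and Tnfsf13os, an antisense RNA that matches by its name alone. In both groups the floxed alleles Rb1lox/lox and p53lox/lox were cut by Osx1-Cre, a recombinase driven by the promoter of Osx1 (Sp7), a factor of osteoblast precursors. For the double knockout tumours (DKO1, DKO2, DKO3) the labels name no other altered allele. The triple knockout tumours (TKO1, TKO2, TKO3) also carried SKP2-/-, which is not written as a floxed allele. Values are given in the order of these numbers throughout. In each group tumour 1 was from a male and tumours 2 and 3 from females, and no ages are given in the labels. SKP2 is the substrate-binding subunit of a ubiquitin ligase that degrades cell cycle inhibitors, and the comparison asked how transcription differs when it is lost.

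TNF ligands are mostly trimers on the cell surface or cut from it, and their receptors fall into classes by what they bind inside the cell. Receptors with a death domain, such as Fas and the receptor for TRAIL, can assemble a caspase-8 complex and kill the cell, while other receptors bind TRAF proteins directly and signal to NF-kB. Leukocytes use many of these pairs for co-stimulation and survival, and osteoblast lineage cells and tumour cells carry several of the receptors.

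The libraries held 17063231 to 22488819 gene counts. The DKO libraries held 20, 64 and 46 counts of Skp2 and the TKO libraries 0 each, which matches their labels. Markers of several other cell types were higher in every TKO tumour than in any DKO tumour: the summed level of 4 leukocyte genes was 2.29 to 6.33 CPM (counts per 1000000 of the scaled library total) in DKO and 204 to 595 in TKO, and that of 5 endothelial genes 8.20 to 9.997 and 147 to 742. The sums over 5 muscle genes were 3.62 to 10.8 and 270 to 8835 CPM and those over 4 neutrophil genes 0.815 to 1.98 and 13.8 to 47.4, while those over 4 Schwann cell genes overlapped, at 0.356 to 1.89 and 1.83 to 5.18. The 6 macrophage genes summed to 6.50 to 123 CPM in DKO and 575 to 1858 in TKO, with C1qa, C1qb and C1qc at 0 in every DKO library. Most of the DKO macrophage sum was Cd68, whose groups overlapped, at 5.46, 121 and 90.4 CPM in DKO and 55.8, 275 and 292 in TKO. Most of the DKO leukocyte sum was Cd53, while Ptprc had 0, 3 and 0 counts there and Laptm5 0, 1 and 0. Bone markers did not mark every tumour. The collagen gene Col1a1 was at 11715, 11181 and 9912 CPM in the DKO tumours and at 208, 30124 and 26812 in TKO. The osteoblast factor Sp7 was at 0 in DKO2 and TKO1, and Runx2 was found in all 6 tumours at 58.2 to 241 CPM. In bulk tissue, fewer cells of a kind and less RNA per cell cannot be told apart, and the part of cell content in the results below was not tested.

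Of the 42 ligand and receptor genes, 30 passed the count filter and were tested, and 5 changed at an adjusted p under 0.05 in edgeR's quasi-likelihood test. Fas, the receptor for Fas ligand, and Tnfrsf23, a receptor of the TRAIL family without a death domain, fell in TKO. Tnfsf10 (TRAIL), Tnfsf14 (LIGHT, a ligand of the lymphotoxin beta receptor) and Tnfrsf13b (TACI, a receptor for the B cell survival factors BAFF and APRIL) rose. Over all 15361 genes tested, 7.36% changed, 4.89% higher and 2.47% lower. Of the 30 members, 16.7% changed, and whether that share differs from the background was not tested. The 3 members that rose reached the filter's level in TKO libraries only, so that they could enter the test only by being high there. All 5 calls were lost when any of the 3 DKO libraries was left out (adjusted p 0.0795 to 0.13), with the sign kept each time. Over all genes, 39, 2 and 0 were called without DKO1, DKO2 and DKO3, against 1131 with all libraries. Without TKO2, Fas and Tnfrsf23 remained called, where 475 genes were called over all. Without TKO3, Tnfrsf23 remained, where 331 were. DESeq2 called the same 5 members and 5 more, Tnfrsf10b, Tnfrsf19, Tnfrsf22, Tnfrsf25 and Tnfsf9, where 19.0% of all genes passed. Leaving out TKO1, the tumour poor in Col1a1, gave 9 called members, where 14.6% of all genes passed: the same 5 with Ltb, Tnfrsf19, Tnfrsf22 and Tnfsf9. The values of the 3 TKO tumours lay wholly above those of the 3 DKO tumours in 5 tested members and wholly below in 7. The shares over all tested genes were 17.3% and 15.6%. The median log2 fold change was 0.25 over the 30 members and 0.09 over all genes tested.

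**Figure D1:**
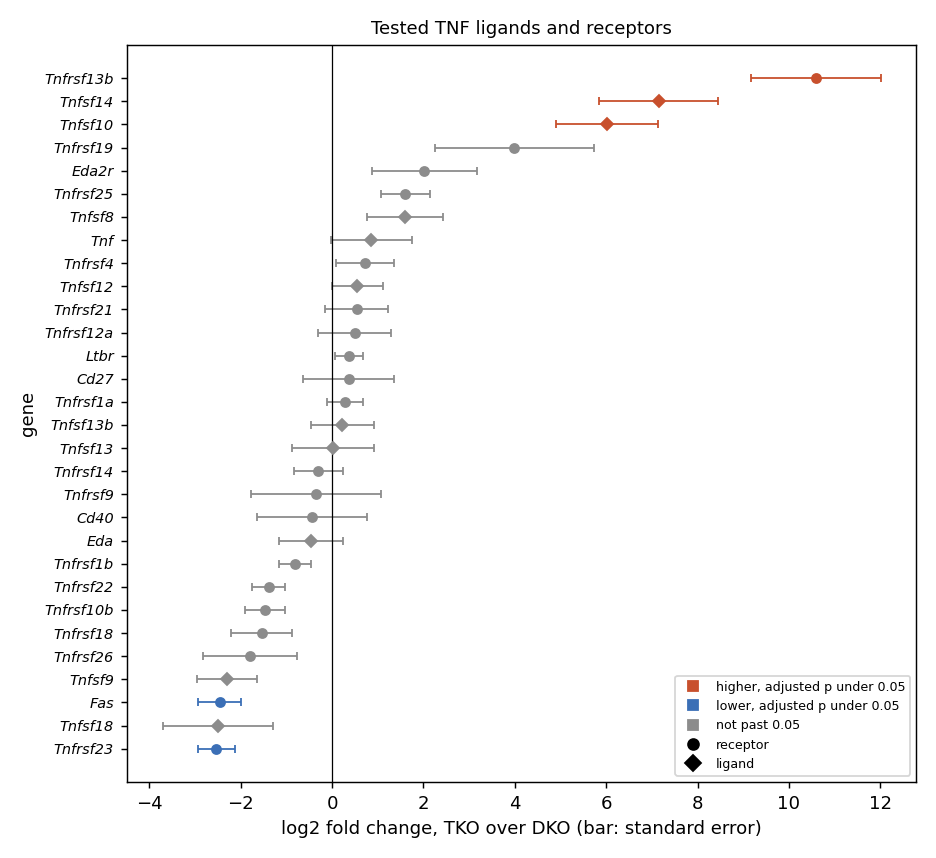
Log2 fold change of TKO over DKO for the 30 tested ligands (diamonds) and receptors (circles), with the standard error as a bar; coloured points passed an adjusted p of 0.05. Tnfrsf13b, Tnfsf14 and Tnfsf10 lie at 10.59, 7.15 and 6.02, and Fas and Tnfrsf23 at -2.46 and -2.54. Tnfrsf13b and Tnfsf14 had 0 counts in DKO, so the size of their fold changes depends on the method. By limma-voom they were 8.12 and 4.90.

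The promoters of the 5 changed genes are shown because they carry the calls, each from RefSeq on GRCm38.p6, the assembly of mm10, as 250 bases before and 50 after an annotated start. Capitals mark matches to the AP-1 motif TGANTCA or the STAT motif TTCNNNGAA on either strand, and no marked sites overlap.
Fas (chr19:34290409-34290708, plus strand): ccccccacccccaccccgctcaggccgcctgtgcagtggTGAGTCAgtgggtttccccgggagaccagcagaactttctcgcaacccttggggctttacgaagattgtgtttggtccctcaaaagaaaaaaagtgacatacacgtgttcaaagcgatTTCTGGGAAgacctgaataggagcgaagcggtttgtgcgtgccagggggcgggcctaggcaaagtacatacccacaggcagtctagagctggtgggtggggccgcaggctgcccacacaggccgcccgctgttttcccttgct
Tnfrsf23 (chr7:143685826-143686125, minus strand): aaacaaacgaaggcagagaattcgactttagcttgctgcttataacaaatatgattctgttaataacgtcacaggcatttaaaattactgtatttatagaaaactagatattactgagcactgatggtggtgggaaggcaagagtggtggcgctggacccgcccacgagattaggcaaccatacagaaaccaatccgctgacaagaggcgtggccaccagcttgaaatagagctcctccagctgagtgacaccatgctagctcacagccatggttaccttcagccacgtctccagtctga
Tnfsf10 (chr3:27316827-27317126, plus strand): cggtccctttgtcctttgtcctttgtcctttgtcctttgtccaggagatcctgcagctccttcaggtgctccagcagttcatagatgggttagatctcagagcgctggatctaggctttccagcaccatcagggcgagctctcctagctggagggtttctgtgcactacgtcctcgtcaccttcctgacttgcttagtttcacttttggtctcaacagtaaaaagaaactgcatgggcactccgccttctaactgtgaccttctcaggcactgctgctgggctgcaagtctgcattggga
Tnfsf14 (chr17:57194132-57194431, minus strand): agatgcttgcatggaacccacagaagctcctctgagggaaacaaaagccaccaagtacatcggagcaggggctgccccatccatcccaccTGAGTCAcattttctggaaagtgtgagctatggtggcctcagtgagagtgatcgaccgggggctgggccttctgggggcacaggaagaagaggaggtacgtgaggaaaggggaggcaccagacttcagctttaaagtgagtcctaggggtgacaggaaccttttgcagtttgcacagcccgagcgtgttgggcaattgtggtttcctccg
Tnfrsf13b (chr11:61126505-61126804, plus strand): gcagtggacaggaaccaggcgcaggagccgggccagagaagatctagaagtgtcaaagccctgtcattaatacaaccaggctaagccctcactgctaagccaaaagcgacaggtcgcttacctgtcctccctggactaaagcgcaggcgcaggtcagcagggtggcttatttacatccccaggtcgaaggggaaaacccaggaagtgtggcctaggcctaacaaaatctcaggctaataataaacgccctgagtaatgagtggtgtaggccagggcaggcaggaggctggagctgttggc
Fas and Tnfsf14, which moved in opposite directions, each held 1 AP-1 match, and Fas also held 1 STAT match. Of all 32851 promoters of this length, 7.81% held the AP-1 motif and 8.30% the STAT motif. The NF-kB consensus was in none of the 5 windows, in those of Ltb, Tnfrsf8 and Tnfrsf9 among the members, and in 4.51% of all promoters. A promoter was listed for 33 of the 43 members. CG dinucleotides numbered 14 in the Fas window, 9 in that of Tnfrsf23, 8 in that of Tnfrsf13b, 7 in that of Tnfsf14 and 6 in that of Tnfsf10, with a median of 7 over all promoters.

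Ligands were the low side of the family in every tumour. Their summed level was 27.6, 27.5 and 34.5 CPM in DKO and 31.5, 41.5 and 29.5 CPM in TKO. The receptors summed to 1010, 788 and 913 CPM in DKO and 688, 1305 and 736 CPM in TKO, so that both totals overlapped between the groups. To compare genes with each other, levels were divided by exonic length. Per kilobase, Tnfsf9 was the highest ligand in all 3 DKO tumours, at 6.04, 3.43 and 5.92 CPM per kb. In all 3 TKO tumours it was Tnfsf12, at 2.63, 5.77 and 3.69. Tnfsf12 shares 731 of its 1515 exonic bases with the gene Tnfsfm13, and Tnfsf9 192 of 1290 with Gm11110. Reads in shared bases were left out, while the full length was the divisor, so both levels may be too low. The part of this in the change of highest ligand and in the ligand shares below was not tested. Co-stimulatory ligands (Tnfsf4, Tnfsf8, Tnfsf9, Tnfsf15, Tnfsf18, Cd40lg and Cd70) made up 65.0, 51.5 and 48.0% of the summed ligand level per kb in DKO and 24.6, 13.9 and 14.9% in TKO. The death ligands Tnfsf10 and Fasl made up 0.362, 0.187 and 0% in DKO and 8.04, 14.0 and 18.0% in TKO.

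**Figure D2:**
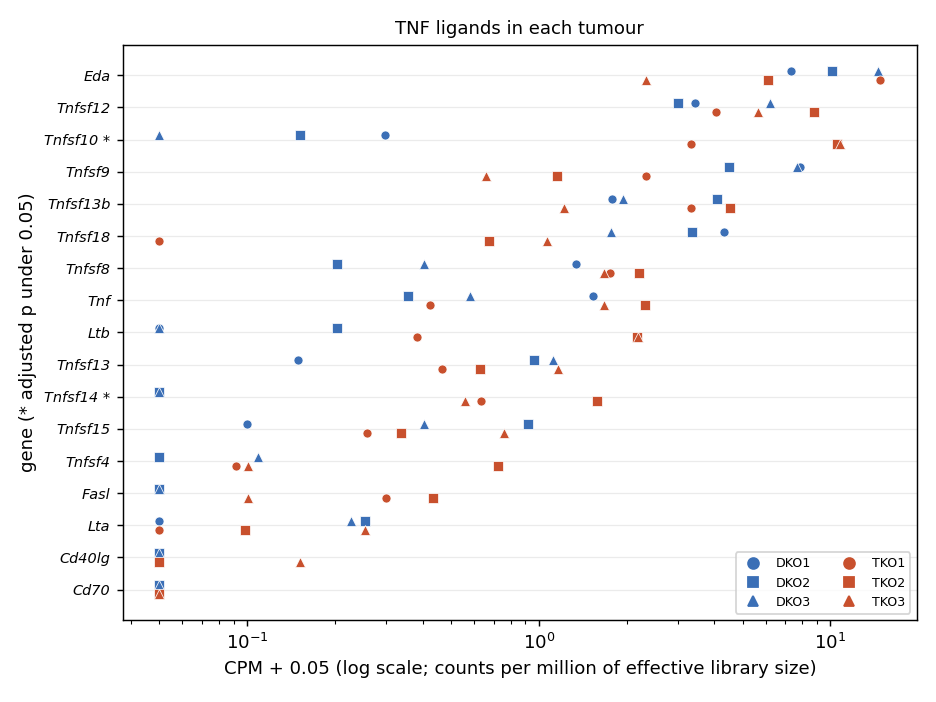
CPM of the 17 ligands in each tumour, plotted as CPM + 0.05 on a log scale; blue points are DKO, red points TKO, and the shape gives the tumour number. Tnfsf10 lies at 0 to 0.248 CPM in DKO and 3.28 to 10.7 in TKO, and Tnfsf9 at 4.43 to 7.79 and 0.610 to 2.28.

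TRAIL rose from near absence. Tnfsf10 (ENSMUSG00000039304.11, chromosome 3, 27317028 to 27342427), whose product binds death receptor 5 and kills many transformed cells, was at 0.248, 0.102 and 0 CPM in DKO and at 3.28, 10.5 and 10.7 CPM in TKO. Every TKO tumour lay above every DKO tumour, and TKO1 was the lowest of the 3. The log2 fold change was 6.02 (SE 1.11, adjusted p = 0.0295). Tnfsf14 (ENSMUSG00000005824.7, chromosome 17, 57189492 to 57194177), which T cells and other leukocytes make, had 0 counts in DKO and was at 0.581, 1.54 and 0.508 CPM in TKO. It was at least 16.4-fold higher in TKO against a floor of 3 counts over the DKO group (adjusted p = 0.043). Fasl, the death ligand of cytotoxic lymphocytes, was too low to be tested, with 0 counts in DKO and 6, 8 and 1 counts in the TKO tumours, at least 4.39-fold higher against the same floor. T cell markers were scarce in all tumours: 8 genes summed to 1.79 to 4.38 CPM in DKO and 2.37 to 12.3 in TKO. Of these, Cd2, Cd8a, Cd3g, Cd3d and Trac were at 0 in every DKO library. The 4 NK cell markers were at 0 in DKO and summed to 0.415, 1.73 and 0.711 CPM in TKO.

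The lymphotoxin and TNF genes lie side by side on chromosome 17, between 35194439 and 35205351. Ltb, which builds the membrane lymphotoxin that organises lymphoid tissue, was at 0, 0.153 and 0 CPM in DKO and 0.332, 2.11 and 2.13 in TKO. With 3 counts in DKO and 94 in TKO, the ratio was 27.5 (exact 95% counting interval 9.13 to 136). It missed the count filter with all libraries. Its neighbour Tnf, the founding inflammatory cytokine of macrophages, was at 1.49, 0.305 and 0.532 CPM in DKO and 0.374, 2.26 and 1.63 in TKO, and the groups overlapped (log2 fold change 0.86, SE 0.89, adjusted p = 0.587). Lta, for lymphotoxin alpha, had at most 4 counts in any tumour. Of the 3 genes, Tnf alone was tested, and its difference was within the spread between tumours.

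Of the ligands listed above as co-stimulatory, Tnfsf4, Tnfsf15, Cd40lg and Cd70 were too low to be tested. Tnfsf8, Tnfsf9 and Tnfsf18 were tested and did not pass. Their groups did not overlap, and they lay on both sides. Tnfsf14, whose receptor HVEM is among the T cell receptors below, was not in the co-stimulatory list and passed. Tnfsf9 (4-1BBL) was at 7.79, 4.43 and 7.63 CPM in DKO and 2.28, 1.11 and 0.610 in TKO, with no overlap, but missed the threshold (log2 fold change -2.30, SE 0.67, adjusted p = 0.0863). It passed by DESeq2 (adjusted p = 0.00387) and by edgeR without TKO1 (0.0366). Its neighbours on chromosome 17 did not follow it: Cd70 was at 0 in all 6 tumours and Tnfsf14 rose. Tnfsf18 (GITRL) was at 4.27, 3.31 and 1.72 CPM in DKO and 0, 0.625 and 1.02 in TKO, also without overlap (adjusted p = 0.252). Tnfsf8 (CD30L) went the other way, with 1.29, 0.153 and 0.355 CPM in DKO and 1.70, 2.16 and 1.63 in TKO (adjusted p = 0.28). Tnfsf4 (OX40L) had 1 count in DKO and 16 in TKO, of which 14 were in TKO2. Tnfsf15 (TL1A) had 1 to 17 counts in a tumour in both groups. Cd40lg, the T cell ligand of CD40, was seen as 2 counts in TKO3 alone.

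The other ligands overlapped between the groups. Tnfsf12 (TWEAK) was at 3.37, 2.95 and 6.15 CPM in DKO and 3.99, 8.75 and 5.59 in TKO (adjusted p = 0.575). Tnfsf13b (BAFF) was at 1.74, 4.02 and 1.89 CPM in DKO and 3.28, 4.47 and 1.17 in TKO (adjusted p = 0.874). Tnfsf13 (APRIL) had 0.0992, 0.916 and 1.06 CPM in DKO and 0.415, 0.577 and 1.12 in TKO. The annotation places the fusion gene Tnfsfm13 over Tnfsf12 and Tnfsf13, and 46.8 and 57.3% of their transcripts' 50-base stretches are shared with other genes, so both counts are uncertain. The antisense RNA Tnfsf13os, at 0.0992 to 0.813 CPM, shares 221 of its 1109 exonic bases with Tnfsf13 and 0 with Tnfsf12, and reads in the shared bases cannot be assigned without strand. Eda, the ectodysplasin of hair, tooth and gland buds, was at 7.24, 10.1 and 14.6 CPM in DKO and 14.8, 6.05 and 2.29 in TKO, and was highest in DKO3 and TKO1 (adjusted p = 0.729).

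Among the 7 receptors with a death domain, Fas fell and the TRAIL receptor lay lower without passing. Fas (ENSMUSG00000024778.13, chromosome 19, 34290666 to 34327772) was at 21.1, 25.3 and 21.2 CPM in DKO and at 2.53, 6.44 and 3.30 CPM in TKO. The DKO tumours lay close together, and the highest TKO value stood far below the lowest DKO value. Means were 22.5 ± 2.41 and 4.09 ± 2.07 CPM (SD, n = 3), a 5.50-fold difference (log2 fold change -2.46, SE 0.47, adjusted p = 0.0312 in edgeR's test). Tnfrsf10b, the only mouse TRAIL receptor with a death domain, was at 74.5, 109 and 118 CPM in DKO and 32.9, 56.9 and 18.9 in TKO. No values overlapped, but the difference missed the threshold (log2 fold change -1.47, SE 0.44, adjusted p = 0.0962). It passed by DESeq2 (0.0279).

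None of the remaining death domain receptors passed edgeR's test, and 2 of them, Edar and Ngfr, were too low to be tested. Tnfrsf1a, the main TNF receptor of most tissues, was at 216, 125 and 156 CPM in DKO and 111, 248 and 242 in TKO (log2 fold change 0.27, SE 0.39, adjusted p = 0.711). Tnfrsf25 (DR3), the receptor for TL1A, was at 3.87, 3.61 and 2.01 CPM in DKO and 13.7, 5.81 and 9.35 in TKO, without overlap (adjusted p = 0.127, and 0.0178 by DESeq2). Tnfrsf21 (DR6) was at 7.54, 18.8 and 22.2 CPM in DKO and 8.39, 45.2 and 16.7 in TKO (adjusted p = 0.674). Edar, the ectodysplasin receptor of skin appendages, had 1 count in DKO, 9 in TKO2 and 34 in TKO3. The 5 epithelial markers summed to 0.0496 to 0.237 CPM in DKO and 8.06 to 18.8 in TKO, and 3 of the 3 tested rose. Ngfr, the neurotrophin receptor p75, stayed at 0 to 6 counts in each tumour.

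The TRAIL family receptors without a death domain form a cluster on chromosome 7. Tnfrsf26, Tnfrsf22 and Tnfrsf23 lie next to each other between 143607659 and 143685872. Tnfrsf22 and Tnfrsf23 bind TRAIL without passing on a death signal. Tnfrsf23 (ENSMUSG00000037613.16) was at 72.9, 71.0 and 60.0 CPM in DKO and 10.6, 17.6 and 6.86 CPM in TKO. It had the lowest p of all members, with means of 68.0 ± 6.99 and 11.7 ± 5.47 CPM (SD, n = 3) and a 5.81-fold difference (log2 fold change -2.54, SE 0.40, adjusted p = 0.0213). Tnfrsf22 was at 27.1, 22.5 and 35.7 CPM in DKO and 13.4, 7.59 and 11.5 in TKO (log2 fold change -1.39, SE 0.37, adjusted p = 0.0672). It passed by DESeq2 (0.00748) and without TKO1 (0.0396). Both were below the DKO range in every TKO tumour. Tnfrsf26 varied among the DKO tumours, with 32.3, 12.2 and 1.01 CPM, while the TKO tumours held 4.24, 4.04 and 4.78 CPM (adjusted p = 0.324). Of the 50-base stretches in their transcripts, Tnfrsf22 and Tnfrsf23 share 27.4 and 19.3% with other genes, mostly with each other. Reads at several places were not counted to a gene, so both may be undercounted.

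TRAIL and the 3 members that bind it, Tnfrsf10b, Tnfrsf22 and Tnfrsf23, thus lay on opposite sides of the comparison. Of these genes only Tnfsf10 and Tnfrsf23 passed the test. Bulk values do not show whether ligand and receptor were in the same cells. Tnfrsf10b, Tnfrsf22 and Tnfrsf23 summed to 175, 203 and 214 CPM in DKO and 56.9, 82.1 and 37.2 CPM in TKO. Tnfrsf11b (osteoprotegerin) was left out of the members and is not in this sum. The ratio of Tnfsf10 to Tnfrsf10b per kilobase was at most 0.00345 in DKO and was 0.103, 0.191 and 0.587 in TKO. Receptors of the chromosome 7 cluster made up 9.87, 10.3 and 7.75% of the summed receptor level per kb in DKO and 2.73, 1.69 and 2.35% in TKO.

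Genes around the cluster were read to see how far the pattern reached. Within 200 kb of the 3 receptors, 9 other genes were tested, and 2 of them fell, where 2.47% of all tested genes did: Cars, the cysteinyl-tRNA synthetase next to Tnfrsf26, from 233 ± 57.8 to 32.9 ± 6.57 CPM (adjusted p = 0.012), and Dhcr7, the last enzyme of cholesterol synthesis, from 62.5 ± 8.65 to 23.9 ± 4.10 CPM (adjusted p = 0.0336; SD, n = 3). Nap1l4, a histone chaperone gene 1 step beyond Cars, was at 120 ± 23.4 CPM in DKO and 119 ± 24.9 in TKO. Osbpl5, next to Tnfrsf23 on the other side, was at 75.6 ± 14.0 and 46.0 ± 10.6 CPM, wholly lower in TKO (adjusted p = 0.183). Of the other neighbours, Slc22a18, a transporter gene, lay wholly lower (adjusted p = 0.491) and Kcnq1, a potassium channel gene, wholly higher (adjusted p = 0.147), and neither passed.

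**Figure D3:**
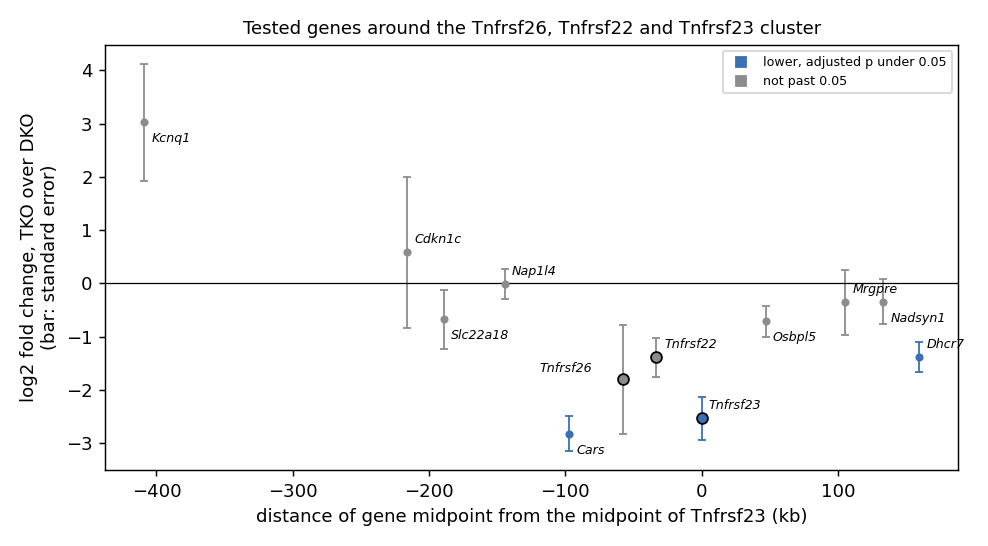
Log2 fold change (TKO over DKO, with the standard error) of the 12 tested genes within 200 kb of the chromosome 7 cluster, by distance of each gene's midpoint from that of Tnfrsf23 in kb. Cars (-2.82), Tnfrsf23 (-2.54) and Dhcr7 (-1.39), in blue, passed an adjusted p of 0.05, and Nap1l4 lies at -0.01.

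Receptors that bind TRAF proteins held most of the receptor level, 56.5 to 60.4% per kb in DKO and 55.1 to 75.2% in TKO. Per kilobase, Tnfrsf1a or Tnfrsf12a was the highest receptor in each tumour. Tnfrsf12a (Fn14), the receptor for TWEAK, was at 88.3, 81.3 and 127 CPM in DKO and 200, 201 and 16.9 in TKO. TKO3 held less than any DKO tumour and the other TKO tumours more (adjusted p = 0.743, sign reversed by limma-voom). Ltbr, the lymphotoxin beta receptor of stromal cells, was at 102, 73.6 and 95.1 CPM in DKO and 78.5, 133 and 139 in TKO (log2 fold change 0.37, SE 0.31, adjusted p = 0.498). Tnfrsf1b, the TNF receptor that binds TRAF2, was at 149, 172 and 225 CPM in DKO and 121, 125 and 63.5 in TKO, without overlap (adjusted p = 0.2). Its gene neighbour Tnfrsf8 (CD30) stayed at or under 2.48 CPM in all tumours. The ratio of Tnfrsf1a to Tnfrsf1b per kilobase was 2.14, 1.08 and 1.02 in DKO and 1.35, 2.94 and 5.61 in TKO, with overlapping groups.

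**Figure D4:**
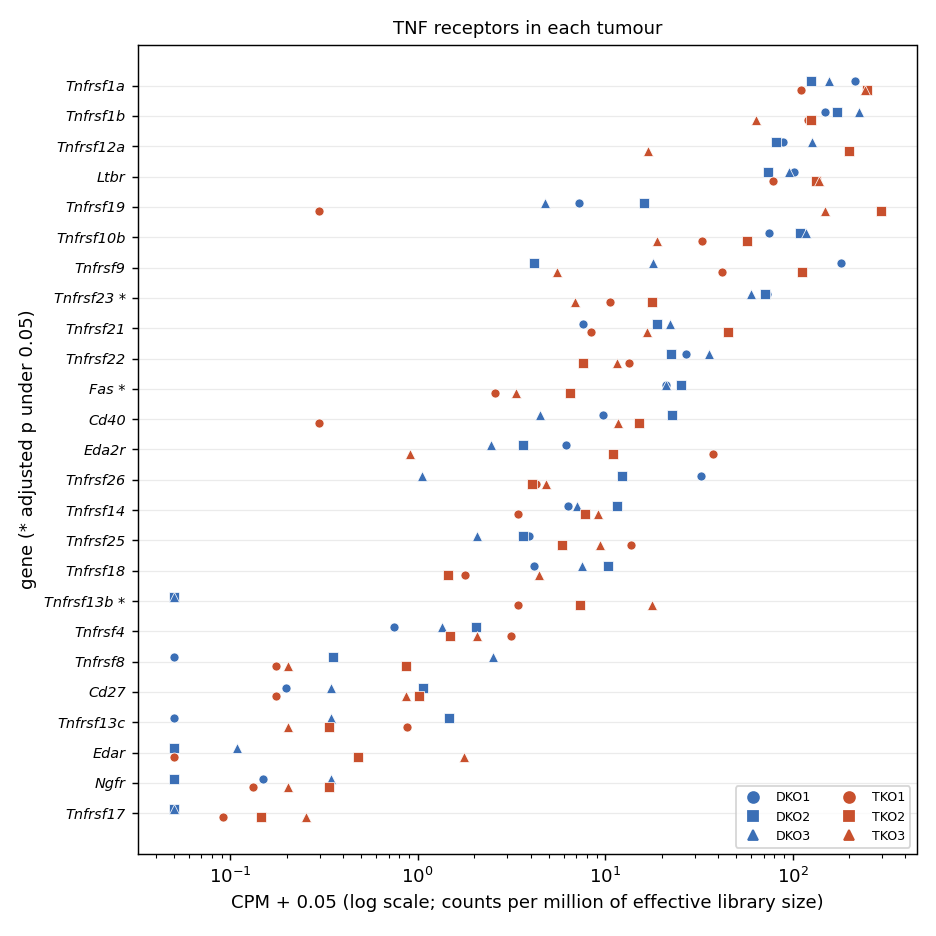
CPM of the 25 receptors in each tumour, plotted as CPM + 0.05 on a log scale; blue points are DKO, red points TKO, and the shape gives the tumour number. Fas and Tnfrsf23 show no overlap between groups, Tnfrsf13b lies at 0 in DKO, and Tnfrsf19 spreads from 0.249 to 296 CPM among the TKO tumours.

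Tnfrsf19 (TROY), a receptor of skeletal, skin and neural progenitors, spread widely within the TKO group. It was at 7.24, 16.1 and 4.73 CPM in DKO and at 0.249, 296 and 149 CPM in TKO. TKO1 lay below every DKO tumour and TKO2 and TKO3 far above them (log2 fold change 3.98, SE 1.74, adjusted p = 0.212). Without TKO1 the log2 fold change was 4.56 (adjusted p = 0.00869), and DESeq2 called it with all 6 tumours (0.0239). The 7 osteoblast markers summed to 10025 to 11851 CPM in DKO and to 267, 32835 and 33706 CPM in TKO, most of it Col1a1. TKO1 was below and TKO2 and TKO3 above every DKO tumour for both this sum and Tnfrsf19. Not every marker placed TKO1 below all DKO tumours: Sp7 and Ibsp were at 0 in TKO1 and in DKO2. Bglap in TKO1, at 0.374 CPM, was above every DKO tumour. The part of osteoblast content in the Tnfrsf19 values was not tested. Cd40, a receptor of antigen-presenting and stromal cells, was also lowest in TKO1, with 9.68, 22.8 and 4.44 CPM in DKO and 0.249, 15.1 and 11.7 in TKO (adjusted p = 0.85). Eda2r, the second ectodysplasin receptor, was highest in TKO1, with 6.15, 3.61 and 2.43 CPM in DKO and 37.7, 11.0 and 0.864 in TKO (adjusted p = 0.321).

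Receptors of B and plasma cells were split. Tnfrsf13b (ENSMUSG00000010142.12, chromosome 11, 61126755 to 61149372) had 0 counts in all DKO tumours and 81, 152 and 351 counts in TKO, or 3.36, 7.30 and 17.8 CPM. It was at least 171-fold higher in TKO against the floor of 3 counts over the DKO group (adjusted p = 0.0262). Tnfrsf17 (BCMA), the APRIL receptor of plasma cells, had 0 counts in DKO and 1, 2 and 4 in TKO, at least 2.05-fold higher. Tnfrsf13c, the BAFF receptor of B cells, had 0, 28 and 5 counts in DKO and 20, 6 and 3 in TKO and was not tested. The plasma cell genes Jchain and Igkc rose, from at most 0.0592 CPM in a DKO tumour to 15.0, 46.3 and 25.0 CPM and 39.6, 90.7 and 52.2 CPM. Of the 5 plasma cell markers, 4 were tested and 2 rose, and the list summed to 178 to 281 CPM in DKO and 165 to 685 in TKO, most of it Sdc1. The 5 B cell markers summed to 0.414 to 2.29 CPM in DKO and 1.495 to 5.14 in TKO, with overlap, and Cd79b and Ms4a1 were at 0 in DKO. Cd79a alone was tested and rose (adjusted p = 0.0449 in edgeR's test). Pax5 went the other way, with 1.59, 1.93 and 0.296 CPM in DKO and 0.374, 0.192 and 0.203 in TKO. Tnfrsf13b was highest in TKO3, while Jchain, Igkc and the B cell sum were highest in TKO2, and the part of these cells in its rise was not tested.

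Of the T cell co-stimulatory receptors, Tnfrsf9, Tnfrsf18, Tnfrsf4, Cd27 and Tnfrsf14 did not pass the test, and in each of them the groups overlapped. Tnfrsf25, the receptor for the co-stimulatory ligand Tnfsf15, is given above with the death domain receptors and did not overlap. Tnfrsf9 (4-1BB), the receptor for Tnfsf9, was at 182, 4.12 and 18.0 CPM in DKO and 42.0, 112 and 5.49 in TKO (adjusted p = 0.904). Its log2 fold change was -0.35 with all tumours and 2.26 without DKO1, and its sign also turned without TKO3 (0.19), by limma-voom (0.32) and with sex as a covariate (1.15). Tnfrsf18 (GITR) was at 4.12, 10.3 and 7.51 CPM in DKO and 1.74, 1.39 and 4.37 in TKO (adjusted p = 0.204). It shares 18.7% of its 50-base stretches with the antisense gene Gm16008. Tnfrsf4 (OX40), its neighbour on chromosome 4, was at 0.695, 1.99 and 1.30 CPM in DKO and 3.11, 1.44 and 2.03 in TKO (adjusted p = 0.514). Cd27, the receptor for CD70, was at 3, 20 and 5 counts in DKO and 3, 20 and 16 in TKO (adjusted p = 0.854). Tnfrsf14 (HVEM), the receptor for LIGHT, was at 6.30, 11.5 and 7.04 CPM in DKO and 3.36, 7.74 and 9.09 in TKO (adjusted p = 0.772). Of the T cell markers, Lck was at 1.79, 4.28 and 2.25 CPM in DKO and 0.748, 2.98 and 2.64 in TKO, and the part of T cells in these values was not tested.

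Below the receptors, a list of 55 adaptors, death effectors, NF-kB genes and proteases was read, and 53 were tested, of which 51 did not pass. The share called was 3.77%, against 7.36% of all genes, and the median log2 fold change was -0.17, against 0.09. Relb, the NF-kB subunit of the pathway that LTBR, CD40 and BAFF receptor use, fell from 89.6, 88.0 and 74.0 CPM to 26.1, 42.3 and 22.5 (log2 fold change -1.47, SE 0.32, adjusted p = 0.0412). The call was lost without any of the DKO libraries (adjusted p 0.123 to 0.142) and without TKO3 (0.1).

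The other genes named by p did not pass. Ripk3, the kinase of necroptosis, was at 67.0, 148 and 91.3 CPM in DKO and 3.45, 20.5 and 24.5 in TKO (adjusted p = 0.075). Nfkbib, an NF-kB inhibitor, was at 36.9, 38.0 and 33.2 CPM in DKO and 18.1, 17.9 and 16.4 in TKO (adjusted p = 0.0593). Rhbdf1 and Rhbdf2, the iRhoms that bring the TNF sheddase ADAM17 to the surface, were at 148 ± 19.2 and 62.5 ± 15.2 CPM in DKO and 62.9 ± 21.3 and 33.7 ± 6.54 in TKO (SD, n = 3; adjusted p = 0.0686 and 0.129). By sublist, 0 of 21 adaptors and ligases, 1 of 12 NF-kB and TNF-induced genes (Relb) and 0 of 7 proteases changed. Of the 12 NF-kB and TNF-induced genes, 5 lay wholly lower in TKO and 0 wholly higher, with a median log2 fold change of -0.79, where over all tested genes 15.6% lay wholly lower and 17.3% wholly higher and the median was 0.09. Casp8 and Fadd, the core of the death complex under Fas and the TRAIL receptor, were at 40.3 ± 8.49 and 10.3 ± 5.93 CPM in DKO and 49.8 ± 7.33 and 9.17 ± 0.708 in TKO (SD, n = 3; adjusted p = 0.537 and 0.874).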

How the data were processed

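Polyadenylated RNA of about 100 mg of tumour per library was read on a HiSeq instrument, per the labels' protocols. Deposited were the authors' whole-number counts of reads per gene for each library and as 1 table, and the submitters' processing notes name STAR 2.6.1 and mm10. Which annotation was counted is not stated there. The table was used (0 values differed from the library files, column of reads on either strand; the first strand held 50.2 to 51.3%). IDs were matched to GENCODE M21 (GRCm38), 55240 of 56196, which also gave positions and exonic lengths. Reads at several places (3.94 to 4.70%), in more than 1 gene (5.10 to 6.53%), in no gene (5.33 to 9.30%) and unmapped (2.53 to 3.20%) stood apart and were left out.

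Genes passing filterByExpr (minimum count 10) were compared in all 6 libraries with edgeR 4.0.16 in R 4.3.3 (TMM, robust quasi-likelihood test, no covariate), adjusted by Benjamini-Hochberg over 15361 genes at 0.05. CPM is per 1000000 of library total times TMM factor. A floor is 3 counts over a group, and floors and intervals cover counting error only, since reads carried no molecular identifiers. The titles carry distinct IDs and the sexes differ, but no label says that each library came from its own mouse, so p-values cover the spread among these 6 samples. In 3 simulated runs on 15361 genes for TKO against DKO, 200 changes a run were planted among genes above a count floor. Of these, 13.7% of 4-fold and 77.7% of 16-fold changes were recovered, with 5 false calls a run.

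Members and lists were chosen with earlier results of these data known. Named were all members past 0.05 or with at least 1 CPM in at least 2 libraries, and from the pathway list those past 0.05 and the 4 next by p; other members appear as counts or ranges. The result of 1 gene of that list is not reported here. Casp8, Fadd, Birc2, Birc3 and the neighbours of the chromosome 7 cluster were named after their values were seen. Correlated genes, planned for the members of lowest p, are not given because the groups form separate clusters. Alternatives were RLE factors, library totals, DESeq2 1.42.0, limma-voom (limma 3.58.1), wider and narrower filters, the replicate block, sex, and leaving out each library.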

Additional observations from a re-analysis of the deposited data

How the results depend on the processing

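With RLE factors, library totals, limma-voom or a filter of at least 1 count, the 5 members stayed called. Sex as a covariate gave 4 members, without Tnfsf14. DESeq2 gave 10 members, 5 pathway genes and 2893 genes in all (1131 by edgeR). A filter that also asked for 1 CPM in at least 1 library of each group gave 1 member (Tnfrsf23), 1 pathway gene and 158 genes: Tnfsf10, Tnfsf14 and Tnfrsf13b were no longer tested, and Fas had an adjusted p of 0.062. The replicate block gave 1 member (Tnfrsf23), 0 pathway genes (12 at an unadjusted p under 0.05) and 295 genes. Same-numbered libraries did not deviate together in expression (correlations -0.0167 to 0.00889). These correlations cannot tell whether the numbers pair the samples in another way. Leaving out each library in turn gave 0 to 9 members, 0 to 7 pathway genes and 0 to 2385 genes by edgeR. The lowest, 0 members (9 to 12 at an unadjusted p under 0.05), came without DKO1, DKO2 or DKO3, and the highest without TKO1; the causes were not tested.

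Signs reversed only in members that did not pass. Over the fits without 1 library, the log2 fold change spanned -0.51 to 0.46 for Tnfsf13, -0.18 to 0.69 for Tnfsf13b, -0.078 to 1.47 for Cd27, -1.03 to 0.33 for Cd40, -0.57 to 0.017 for Tnfrsf14, -0.36 to 0.93 for Tnfrsf21 and -1.51 to 2.26 for Tnfrsf9. It was -0.028 for Tnfsf13 with the wider filter, -0.14 for Tnfrsf12a and 0.32 for Tnfrsf9 by limma-voom, and 1.15 for Tnfrsf9 with sex. At 3 libraries a group, most 4-fold changes were missed in the simulated runs. Those runs changed 200 well-counted genes, while 1131 were called in the data, so they cannot give the share missed here.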

Other observations

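A pair of neighbouring genes of the pathway list stood out in 1 tumour and were chosen after their values were seen. Birc2 and Birc3 code for the cellular inhibitors of apoptosis that ubiquitinate RIPK1 in the TNF receptor complex, and lie next to each other on chromosome 9 between 7818227 and 7873186. Birc2 was at 36.2, 183 and 122 CPM in DKO and at 26.6, 38.7 and 748 CPM in TKO. Birc3 was at 93.5, 93.2 and 80.6 CPM in DKO and at 18.3, 52.4 and 433 CPM in TKO. TKO3 was the highest of all 6 tumours for both genes, while TKO1 was the lowest for both, and neither passed the test between the groups (adjusted p = 0.584 and 0.617 in edgeR's test).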
